A study of Mus musculus with 4 samples.

Results

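Integrins are the cell surface receptors, each made of an α and a β chain, that tie cells to the extracellular matrix and to other cells, and laminins are the matrix proteins of basement membranes to which several of them bind. Their genes were followed in the distal colon of 4 mice, 1 mouse and 1 Affymetrix array per group. They were an Adamts12-deficient (KO) mouse given dextran sodium sulfate (DSS), a wild-type (WT) mouse given DSS, an untreated KO mouse and an untreated WT mouse. DSS, a sulfated sugar polymer toxic to the lining of the colon, was given at 2% in drinking water from 8 to 10 weeks of age, and RNA was taken from whole distal colon after 1 day off DSS. The labels give the length of treatment as 8 days in one place and 7 days in another. Adamts12 encodes a secreted metalloprotease. The strain, the sex and the part of Adamts12 removed are not given in the sources used here. Genes were included when the platform annotation gave a probe set to that gene alone and the symbol was that of an integrin α chain, an integrin β chain or a laminin chain. This gave 34 genes, out of 18193 genes on the array with such a probe set, and they comprised 16 integrin α genes, 8 integrin β genes and 10 laminin genes. Where a gene had several probe sets, the one brightest on average was taken. Itga11 and Itgad were not analysed here.

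An integrin binds its ligand only as a pair, and a β chain can have many α partners, so that β1 and αv stand at the centre of the family while β4, β6, β7 and β8 have 1 or a few partners each. A laminin is a trimer of an α, a β and a γ chain and is joined to collagen IV by nidogen. In the gut, epithelial cells sit on laminin through integrins α3β1, α6β1 and α6β4, stromal cells bind collagens and fibronectin, and leukocytes use β2 integrins and the α4β7 pair to leave the blood and enter the mucosa. Integrins αvβ6 and αvβ8 also release active TGF-β from its latent form. The genes are described here as 8 of epithelial cells, 8 of leukocytes and platelets, 9 of stromal, muscle and vascular cells, and 9 that are shared by many cell types, a division made from general knowledge of where they are expressed.

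A difference between 2 arrays has no replicate check here, and differences are given on the log2 scale, where 1 is 2-fold. The signal of a whole tissue cannot tell fewer cells of a type from less RNA per cell. Adamts12 itself was dim. Its brighter probe set stood at 1.41 in the KO and 2.18 in the WT mouse given DSS, and at 1.42 in the KO and 2.18 in the WT mouse left untreated, lower in KO as the labels have it. Background was set at 1.39, the top reading among 9 probe sets of Y-linked genes, and readings at or under it were taken as not above background. This presumes female mice, which the labels do not state. The brightest probe set of Xist, an RNA of female cells, read 9.68 or more on every array. All 10 epithelial markers examined passed the filter and 0 of 5 markers of squamous or basal epithelium did. Genes with a known posterior or anterior position in the gut set the untreated KO array apart. The mean log2 value of 4 posterior markers was 5.24 in KO DSS, 4.37 in WT DSS, 2.42 in untreated KO and 5.94 in untreated WT. The mean of 4 anterior markers was 2.81 in KO DSS, 3.92 in WT DSS, 7.13 in untreated KO and 3.50 in untreated WT. Single markers also differed among the other arrays. The posterior Hoxd13 had 7.20 in KO DSS, 4.22 in WT DSS and 8.82 in untreated WT. The anterior Fabp2 had 4.51, 8.07 and 6.72. The other position markers differed by less between the DSS arrays. Both the DSS difference in KO and the untreated difference between KO and WT use the untreated KO array. The part of gut position in these and in the other comparisons was not tested.

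With DSS, 7 integrin and laminin genes were at least 2-fold higher in the KO colon and 0 in the WT colon, a contrast for which no test was possible. Of the 34 genes, 30 passed a filter that asked for a mean over the 4 arrays above the mean of the array medians (3.44), and 11530 genes of the array did. In KO, 7 of the 30 were at least 2-fold higher with DSS (Itgb8, Itgb3, Itgav, Itga1, Lamb1, Itga5 and Lama3), where 10.4% of all genes were, and 0 were 2-fold lower, where 6.41% were. Of these 7, Itgb8 passed the filter with a mean of 3.75 that leans on the KO DSS array itself. It had 6.25 there and 1.23 to 3.97 on the other arrays, so its place in the count is not independent of the filter. The median DSS difference of the 30 in KO was 0.49, against 0.07 for all genes. In WT, 0 of the 30 were 2-fold higher, where 5.91% of all genes were, and 1 was lower (Lama2), where 4.72% were. The median in WT was -0.13, against -0.01 for all genes. The DSS differences had opposite signs in KO and WT for 17 of the 30 genes (56.7%), and for 39.7% of all genes. Of these 17, 0 reached 2-fold in both genotypes, where 128 of the 11530 genes did, and the 2 DSS differences share no array.

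The untreated KO array held the lowest value for 12 of the 30 genes, against 33.4% of all genes. Set against the untreated WT array instead, the KO DSS array was at least 2-fold higher for 4 of the 30 (Itga5, Itgav, Itgb3 and Itgb8), where 5.85% of all genes were, and lower for 0, where 4.86% were. Between untreated mice, 1 of the 30 was at least 2-fold higher in KO (Itga2), where 3.04% of all genes were, and 3 were lower (Itgb8, Itga8 and Itga1), where 5.76% were. Between DSS-treated mice, 5 were higher in KO (Itgb8, Itgb3, Itgal, Lamb1 and Itgb2), where 3.87% of all genes were, and 0 were lower, where 1.17% were. Itgb8, which passed the filter largely through its KO DSS value, is in both counts of higher genes that use that array. Itga2, the only gene counted higher in untreated KO, passed with a mean of 3.57. It had 4.20 on that array and 2.95 to 3.87 on the others. The KO DSS array held the single highest value for 18 of the 30 genes, against 22.5% of all genes, and the WT DSS array for 1, against 23.5%. By class, the median KO minus WT difference under DSS was 0.17 for the epithelial, 0.56 for the leukocyte and platelet, 0.38 for the stromal and 0.96 for the shared genes that passed, against -0.03 for all genes.

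**Figure D1:**
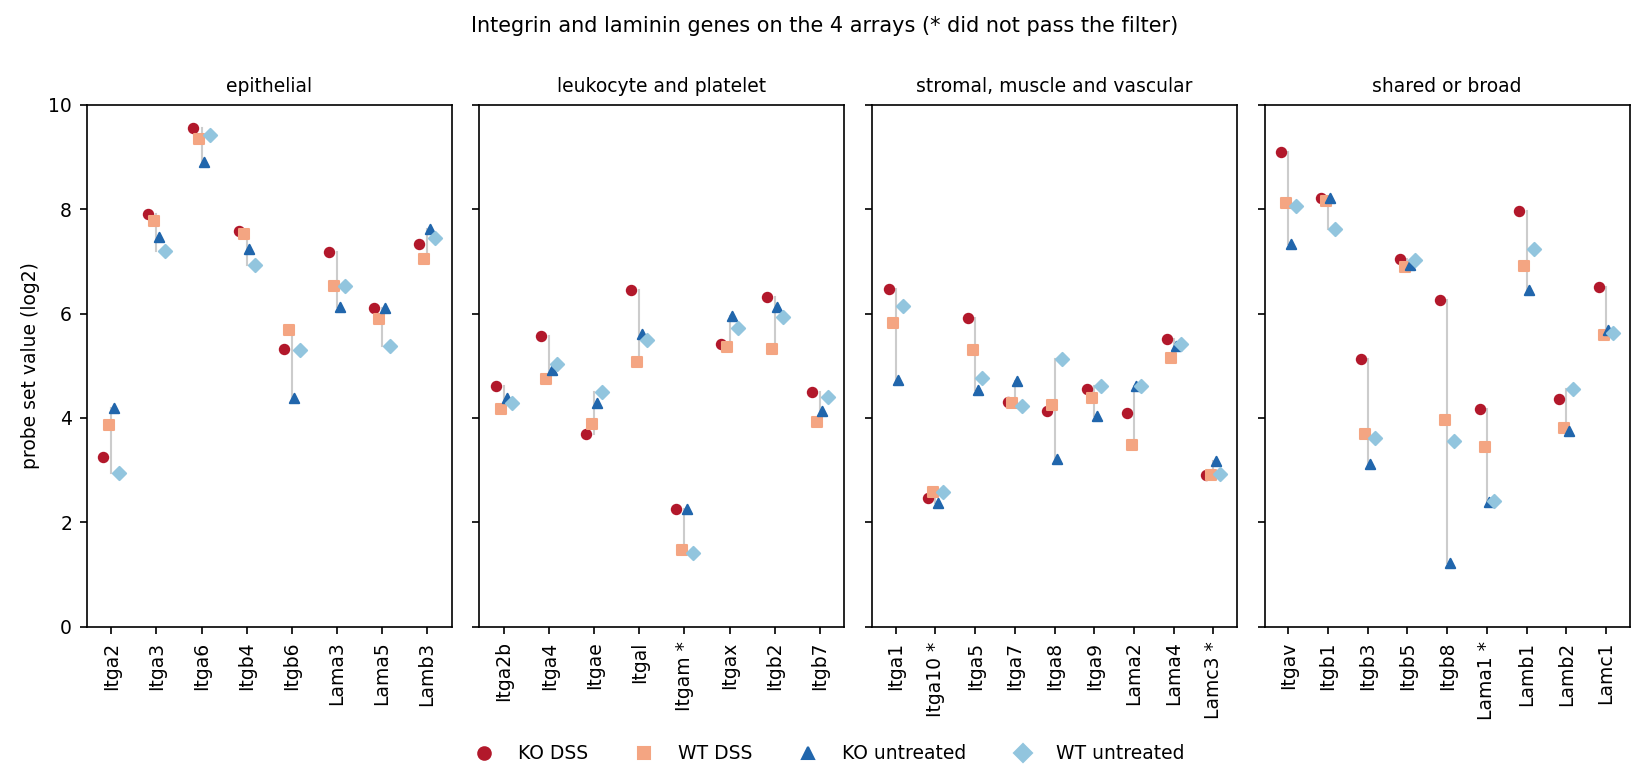
The log2 probe set value of each of the 34 genes on the 4 arrays, 1 panel per group of genes, with 1 mark per array and a grey line over the range; an asterisk marks the 4 genes that did not pass the filter. Itgb8 spans 1.23 to 6.25, and the KO DSS mark is the highest for 18 of the 30 genes that passed.

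**Figure D2:**
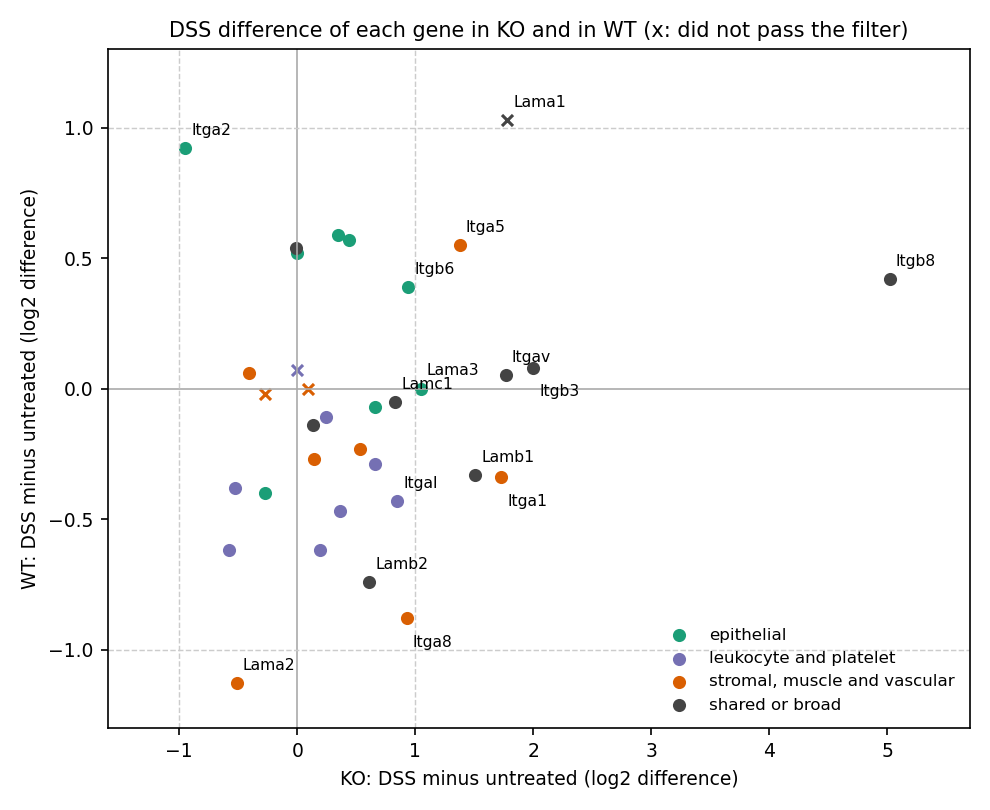
The log2 difference between DSS and untreated arrays for each gene, KO on the horizontal axis and WT on the vertical axis, with dashed lines at 2-fold and crosses for genes that did not pass the filter. Itgb8 lies at its measured 5.02 in KO, which uses a value below background, and 0.42 in WT, and 7 genes that passed lie beyond 2-fold in KO while being under 2-fold in WT.

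Of the 5 shared integrin genes, Itgb8, Itgb3 and Itgav had a DSS difference in KO of 2-fold or more, and Itgb1 and Itgb5 did not. Itgb8 encodes β8, which pairs only with αv and activates latent TGF-β. It stood at 6.25 in KO DSS, 3.97 in WT DSS, 1.23 in untreated KO and 3.55 in untreated WT. The untreated KO value was not above background, so the DSS difference in KO is a bound of at least 4.86 (at least 29.0-fold higher), while in WT the difference was 0.42. Between untreated mice the KO minus WT difference was -2.16 or beyond, and under DSS it was 2.28. It had 1 probe set. The KO DSS array also exceeded the untreated WT array, by 2.70.

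Itgav encodes αv, the chain that pairs with β1, β3, β5, β6 and β8 and binds vitronectin, fibronectin and latent TGF-β. It had 9.10 in KO DSS and 8.11 in WT DSS, against 7.33 in untreated KO and 8.06 in untreated WT. The DSS difference was 1.77 in KO and 0.05 in WT. Its next brightest probe set gave 1.57 in KO and 0.81 in WT, and 2 dimmer ones of its 4 other probe sets pointed the other way in KO, by -0.21 and -0.72. Itgb3, whose product pairs with αv on endothelium and osteoclasts and with αIIb on platelets, had 5.12 and 3.70 in KO and WT DSS and 3.12 and 3.62 in untreated KO and WT. The KO DSS array was the high one, by 1.42 over WT DSS. A second, dimmer Itgb3 probe set did not follow, with 2.44 on the KO DSS array and 2.70 on the untreated KO array.

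The promoter windows of 3 of the 4 genes that were at least 2-fold higher on the KO DSS array than on both untreated arrays are shown because these genes were high on the same array. They are the 250 bases before the RefSeq start (GRCm38.p6), with GC boxes in capitals. Itgb8 lies at chr12:119238277-119238526 on the minus strand, Itgav at chr2:83724147-83724396 on the plus strand and Itga5 at chr15:103366792-103367041 on the minus strand.
Itgb8: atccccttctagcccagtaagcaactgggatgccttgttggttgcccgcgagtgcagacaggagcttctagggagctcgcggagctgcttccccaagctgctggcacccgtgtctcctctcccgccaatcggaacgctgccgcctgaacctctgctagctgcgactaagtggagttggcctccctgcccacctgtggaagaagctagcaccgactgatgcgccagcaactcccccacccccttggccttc
Itgav: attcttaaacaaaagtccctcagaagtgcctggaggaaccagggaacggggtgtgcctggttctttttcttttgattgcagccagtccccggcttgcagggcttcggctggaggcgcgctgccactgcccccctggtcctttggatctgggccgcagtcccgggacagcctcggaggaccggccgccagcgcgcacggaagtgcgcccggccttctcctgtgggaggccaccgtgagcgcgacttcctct
Itga5: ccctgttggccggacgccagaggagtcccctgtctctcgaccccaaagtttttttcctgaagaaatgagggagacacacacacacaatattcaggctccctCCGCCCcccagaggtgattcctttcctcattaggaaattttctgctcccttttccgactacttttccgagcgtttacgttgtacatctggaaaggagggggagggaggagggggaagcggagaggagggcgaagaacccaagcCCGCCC
Searched on both strands were the AP-1 motif TGANTCA, the STAT motif TTCNNNGAA, the TEAD motif GGAATG, the GC box GGGCGG and the CArG box by name. The Itga5 window held 2 GC boxes, both on the other strand, at -149 to -144 and -6 to -1 from the start, and the Itgb8 and Itgav windows held none of the motifs. Of 32536 windows of the same length, 33.0% held a GC box, 6.73% the AP-1, 7.04% the STAT, 12.6% the TEAD and 1.48% the CArG motif. Among the 22 family genes with a window used here, 8 held a GC box, 3 the TEAD, 2 the STAT, 2 the CArG and 1 the AP-1 motif.

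The other shared integrin chains, Itgb1 and Itgb5, stayed under 2-fold in every comparison. Itgb1 encodes β1, the partner of most matrix-binding α chains. It had 8.21 and 8.15 in KO and WT DSS and 8.22 and 7.61 in untreated KO and WT, so that the untreated WT array was the low one. Itgb5, whose product binds vitronectin together with αv, lay within 0.16 on all 4 arrays.

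Of the 4 laminin chains shared by epithelial and stromal basement membranes, Lamb1, Lamc1 and Lamb2 had higher values with DSS in KO and lower ones in WT, by -0.05 to -0.74, and Lama1 had higher values in both. Lamb1, the β1 chain, had 7.96 in KO DSS and 6.90 in WT DSS, against 6.45 in untreated KO and 7.23 in untreated WT. The DSS difference was 1.51 in KO and -0.33 in WT, and its next brightest probe set gave 1.73 and -0.53. Of its 3 other probe sets 1, the dimmest, pointed the other way in KO. Lamc1, the γ1 chain that joins most laminin trimers, had 6.51 and 5.58 in KO and WT DSS and 5.68 and 5.63 in untreated KO and WT, with the KO DSS array the high one. Its other, dimmer probe set did not follow, with 3.97 and 3.63 in KO and WT DSS and 4.10 and 3.80 in untreated KO and WT. Lamb2, the β2 chain of muscle and vascular laminins, differed with DSS by 0.61 in KO and -0.74 in WT and was 0.80 lower in untreated KO than in untreated WT.

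Lama1 encodes the α1 chain, which is prominent in embryonic basement membranes. It did not pass the filter, with a mean over the arrays of 3.11, and is given apart. It had 4.18 and 3.44 in KO and WT DSS and 2.40 and 2.41 in untreated KO and WT. Both DSS arrays lay above both untreated arrays, by 1.78 in KO and 1.03 in WT, and it was the only one of the 34 genes at least 2-fold higher with DSS in both genotypes. All 4 values exceeded the background limit, and Lama1 had 1 probe set.

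**Figure D3:**
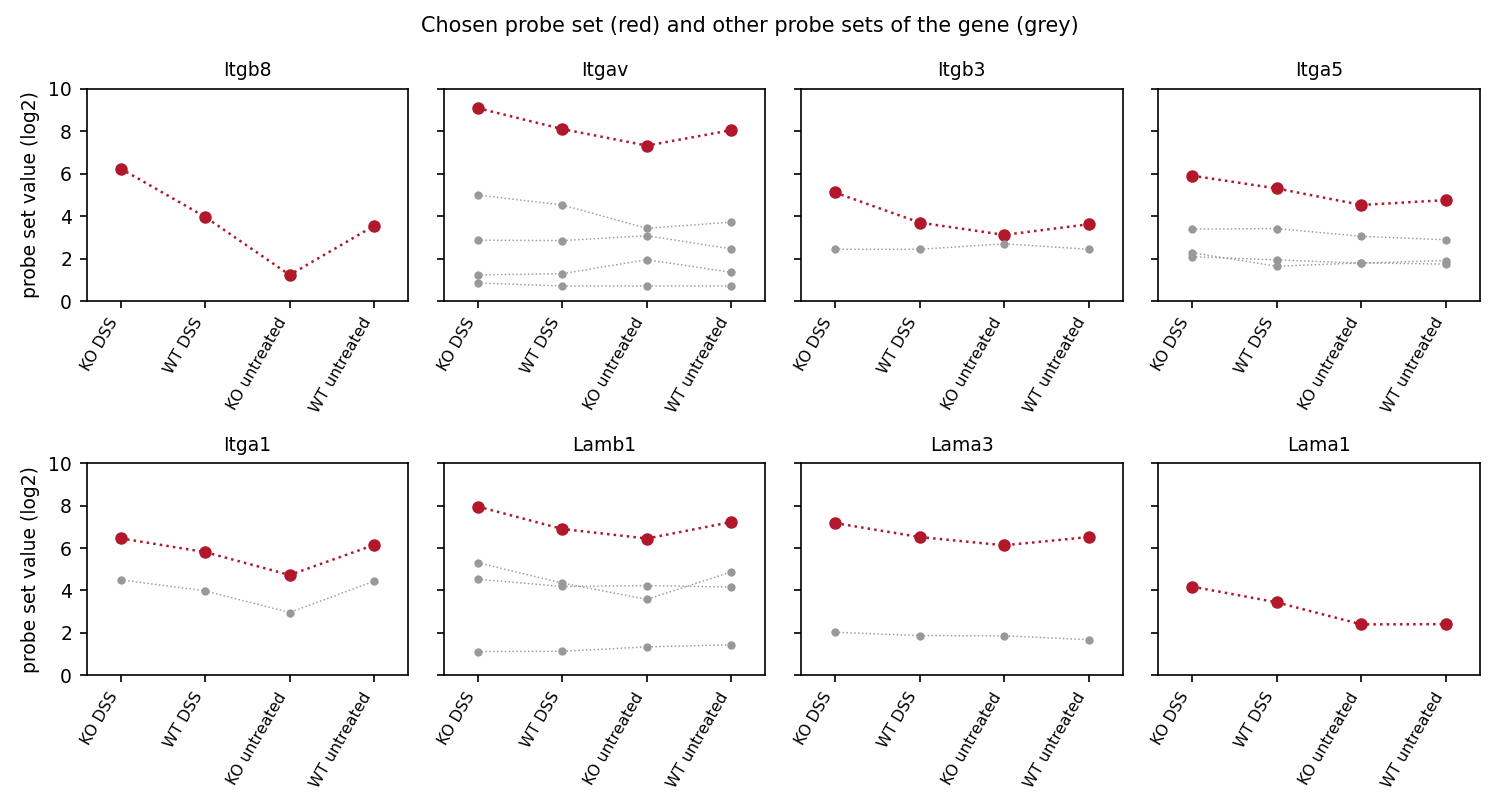
Every probe set of 8 genes whose DSS difference in KO was 2-fold or more, as log2 values on the 4 arrays; the chosen probe set is red, the others grey, and a dotted line joins the values of 1 probe set. Both of the brightest probe sets of Itgav, Itga1 and Lamb1 are lowest on the untreated KO array, while the second Itgb3 probe set stays between 2.44 and 2.70.

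Among stromal, muscle and vascular genes, the fibronectin receptor chain had its 2 highest values on the DSS arrays. Itga5 encodes α5, which pairs with β1 and binds fibronectin on fibroblasts and endothelium. It had 5.91 and 5.31 in KO and WT DSS and 4.53 and 4.76 in untreated KO and WT. Both DSS arrays lay above both untreated ones, by 1.38 in KO and 0.55 in WT. Its 3 other probe sets were also higher with DSS in KO, by 0.30 to 0.48, so that the 2-fold difference rests on 1 probe set.

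Itga1, the α1 chain of a collagen receptor on smooth muscle and other stromal cells, had 6.46 and 5.81 in KO and WT DSS and 4.73 and 6.15 in untreated KO and WT. The low array was the untreated KO one, 1.42 under untreated WT, and the second probe set gave the same, 1.48 lower. Itga8, the α8 chain of mesenchymal and smooth muscle cells, whose ligand is nephronectin, had 4.14 and 4.25 in KO and WT DSS, against 3.21 and 5.13 in untreated KO and WT. The untreated pair differed by -1.92 and the DSS pair by -0.11. Its second probe set was dim, at 1.22 in untreated KO, which is not above background, and 2.18 in untreated WT.

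Itga9, the α9 chain that binds tenascin C, was likewise lowest on the untreated KO array, at 4.03, with 4.38 to 4.61 on the others. Smooth muscle markers were lower in untreated KO too, all 5 of 5, where 5920 of all 11530 genes were. Of the 5, 2 were at least 2-fold lower, where 5.76% of all genes were. Their median was -0.82, with mean log2 values of 9.08 in untreated KO and 10.00 in untreated WT. The part of this difference in the Itga1 and Itga8 values was not tested. Itga7, the laminin receptor chain of muscle, differed the other way, by 0.49.

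Of the stromal laminin genes, Lama2 encodes the α2 chain of muscle basement membrane. It had 4.10 and 3.48 in KO and WT DSS and 4.61 on both untreated arrays. It was lower with DSS in both genotypes, by -0.51 in KO and -1.13 in WT. Lama4, the α4 chain of vessels, lay between 5.14 and 5.52. Itga10, a collagen receptor chain best known in cartilage, and Lamc3, the γ3 chain, did not pass the filter and spanned 0.22 and 0.27 over the 4 arrays.

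Of the 8 epithelial genes, Itga3, Itgb4 and Itgb6 had higher values with DSS in both genotypes, each by less than 2-fold. Itga3, the α3 chain of a laminin receptor of epithelial cells, had 7.90 and 7.77 in KO and WT DSS and 7.46 and 7.20 in untreated KO and WT. Both DSS arrays were the high ones, and its 2 other probe sets gave 0.33 and 0.20 in KO and 0.85 and 0.57 in WT. Itgb4, the β4 chain that pairs with α6 in hemidesmosomes, had 7.58 and 7.52 in KO and WT DSS and 7.23 and 6.93 in untreated KO and WT, again with both DSS arrays on top. Its partner Itga6 differed by 0.66 in KO and -0.07 in WT, and the other Itga6 probe set by 0.84 and 0.26.

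Itgb6, whose product pairs with αv on epithelial cells and activates latent TGF-β, had 5.32 and 5.69 in KO and WT DSS and 4.38 and 5.30 in untreated KO and WT. The untreated KO array was the low one, as it was for Itgb8. The other Itgb6 probe set differed with DSS by 1.41 in KO and -0.03 in WT. Itga2, the α2 chain of a collagen receptor of epithelial cells and platelets, went in opposite directions with DSS, by -0.95 in KO and 0.92 in WT. It had 3.25 and 3.87 in KO and WT DSS and 4.20 and 2.95 in untreated KO and WT, so that the untreated pair differed by 1.25. Its values lay near the filter.

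The laminin chains of the epithelial basement membrane differed in direction. Lama3, the α3 chain of the laminin that binds hemidesmosomes, had 7.18 and 6.52 in KO and WT DSS and 6.13 and 6.52 in untreated KO and WT. The DSS difference was 0.00 in WT and 1.05 in KO, where it was 0.92 after quantile normalization and 0.17 on its only other probe set, which was dim at 1.68 to 2.03. Lamb3, the β3 chain of the same laminin, was slightly lower with DSS, by -0.27 in KO and -0.40 in WT. Lama5, the α5 chain of the main epithelial laminin of adult gut, had 6.11 and 5.90 in KO and WT DSS and 6.11 and 5.38 in untreated KO and WT, and the untreated WT array was the low one. A second, dimmer Lama5 probe set had another order, with 4.60 and 4.11 in KO and WT DSS and 3.84 and 3.87 in untreated KO and WT.

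Most leukocyte integrin genes had higher values in the KO than in the WT colon under DSS, and lower values with DSS in WT. All 7 that passed the filter were lower with DSS in WT, by -0.11 to -0.62, where 5772 of all 11530 genes were. In KO 5 of the 7 were higher with DSS, by up to 0.85, where 6256 of the 11530 were. Itgal, the αL chain of the lymphocyte receptor for ICAM proteins, had 6.45 on the KO DSS array and 5.07 on the WT DSS array, against 5.60 and 5.50 in untreated KO and WT. The DSS pair differed by 1.38, and by 0.40 on its other, dimmer probe set. With DSS in KO that probe set had the opposite sign, at -0.32 against 0.85. Itgb2, the β2 chain common to leukocyte integrins, had 6.32 and 5.32 in KO and WT DSS and 6.13 and 5.94 in untreated KO and WT. Its difference of 1.00 under DSS lay on the 2-fold line and was 0.99 after quantile normalization, with the WT DSS array the low one.

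The gut-homing chain genes Itga4 and Itgb7, which pair as the receptor for the mucosal vessel protein MAdCAM-1, were 0.83 and 0.56 higher in KO than in WT under DSS. Itga4 had 5.57 and 4.74 in KO and WT DSS and 4.91 and 5.03 in untreated KO and WT. Its other 4 probe sets were dimmer and differed in sign under DSS, the brightest giving 0.52 and the next -0.87. Itgae, the αE chain of intraepithelial lymphocytes, which binds E-cadherin with β7, was lower with DSS in both genotypes. It had 3.70 and 3.88 in KO and WT DSS and 4.28 and 4.50 in untreated KO and WT, and its second probe set gave -0.41 in KO and -0.50 in WT.

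Itgax, the αX chain of dendritic cells and macrophages, was also lower in both, by -0.53 in KO and -0.38 in WT. Itga2b, the platelet αIIb chain, spanned 4.18 to 4.62. Itgam, the αM chain of neutrophils and macrophages, did not pass the filter. It was at 2.25 on both KO arrays, against 1.48 on the WT DSS array and 1.41 on the untreated WT array. Both WT values lay close to the background limit of 1.39, so that Itgam could not be compared with the neutrophil markers. The mean log2 value of those 5 markers was 6.07 and 4.10 in KO and WT DSS and 2.96 and 2.47 in untreated KO and WT.

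General leukocyte and B cell markers were also higher in KO than in WT under DSS. All 4 general leukocyte markers were at least 2-fold higher, where 3.87% of all genes were, with a median of 1.55. Their mean log2 values were 8.21 and 6.68 in KO and WT DSS and 6.74 and 7.53 in untreated KO and WT. The 3 B cell markers analysed averaged 7.00 and 4.56 in KO and WT DSS and 4.04 and 6.15 in untreated KO and WT. The 9 T and NK cell markers averaged 4.12 and 3.96 under DSS and 4.56 and 3.98 without it, and the 6 macrophage and monocyte markers 6.80 and 6.24 under DSS and 6.35 and 6.46 without it, KO before WT. Between untreated mice the general leukocyte and B cell medians were -0.71 and -2.27, while the leukocyte integrin median was 0.09. None of these lists was at background on any array, and their part in the integrin values was not tested.

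Most ligands of these integrins had higher values with DSS in KO. Of 13 ligand genes that passed the filter, 8 had a DSS difference in KO of 2-fold or more (61.5%, where 10.4% of all genes were). None was 2-fold lower, where 6.41% of all genes were, and the median was 1.49. In WT 1 was higher (Thbs1) and 0 lower, where 5.91% and 4.72% of all genes were, with a median of -0.13. Fn1, fibronectin, the ligand of α5β1, differed by 1.49 in KO and -0.44 in WT, and Tnc, tenascin C, by 1.92 and 0.35. Thbs1, thrombospondin, differed by 2.14 in KO and 1.15 in WT. The vessel ligands of leukocyte integrins were higher in KO than in WT under DSS, Icam1 by 1.50, Vcam1 by 1.48 and Madcam1 by 1.29. Cdh1, E-cadherin, lay at 9.80 to 10.46. The ligand genes that did not pass were Vtn (vitronectin), Npnt (nephronectin), Icam4 and Icam2. They differed with DSS in KO by -0.49, -0.43, -0.11 and 0.97. Over all 17 measured ligand genes the median in KO was 0.97. Fibroblast markers had higher values too, all 6 of them with DSS in KO, where 6256 of all 11530 genes had. Of the 6, 3 reached 2-fold, where 10.4% of all genes did. Their median was 0.94 there and -0.27 in WT.

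Among 9 basement membrane partners that passed, 4 had a DSS difference in KO of 2-fold or more (Col18a1, Col4a1, Col4a2 and Nid1) and 1 was lower (Agrn), where 10.4% and 6.41% of all genes were, with a median of -0.04. In WT 1 was 2-fold higher and 0 lower, where 5.91% and 4.72% of all genes were, with a median of 0.00. That gene was Col18a1, at 1.34 in WT and 2.11 in KO. Col4a1 and Col4a2, the main collagen IV chains, differed by 2.00 and 1.91 in KO and by 0.00 and 0.23 in WT. Nid1, nidogen, which links laminin to collagen IV, differed by 1.40 and -0.10. Agrn, the laminin-binding proteoglycan agrin, differed by -1.33 in KO and -0.22 in WT. Of the hemidesmosome partners Plec, Dst and Cd151, 0 of 3 reached 2-fold in any comparison. Col17a1, a hemidesmosome collagen of skin, lay at 1.38 to 1.56, at or near background on every array.

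**Figure D4:**
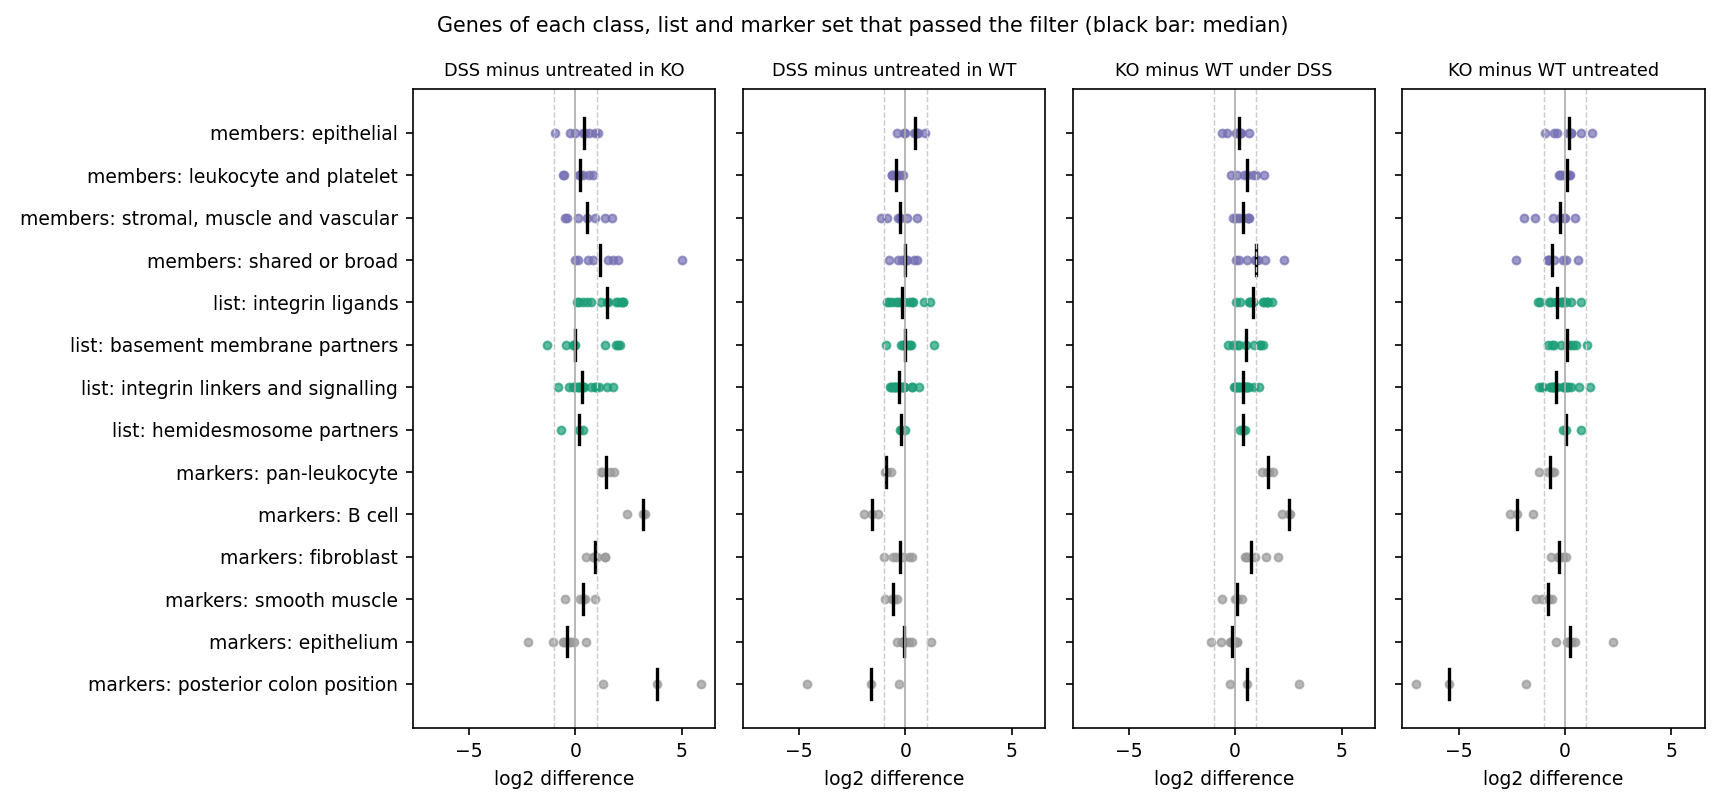
The log2 difference of each gene that passed the filter in 4 comparisons, by group of integrin and laminin genes (purple), partner list (green) and cell marker set (grey), with a black bar at the median and dashed lines at 2-fold. Integrin ligands have a median of 1.49 with DSS in KO, and the posterior position markers have medians of 3.84 with DSS in KO and -5.46 between untreated KO and WT.

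A test over all 4 arrays was possible only by treating one factor as the repeat of the other. In limma's additive model, with Benjamini-Hochberg adjustment over 11530 genes, 0 genes passed at 0.05 (0.0%) for DSS, and 0 (0.0%) for KO against WT. At an unadjusted p under 0.05, DSS gave 896 genes higher (7.77%) and 491 lower (4.26%), and KO gave 80 higher (0.694%) and 95 lower (0.824%). Of the 30 integrin and laminin genes, 1 was among these for DSS and 0 for KO. That gene was Itga5, with a DSS difference of 0.97, an SE of 0.32 and an adjusted p of 0.409 in limma, higher in both genotypes. Itgb8 had an adjusted p of 0.494 in limma, from a fit that includes its untreated KO value below background, so its fitted difference is not given.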

How the data were processed

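The data were 4 Affymetrix arrays of total RNA, labelled as biotinylated cRNA per the labels' protocols. The authors deposited log2 values for 45101 probe sets, with column medians of 3.42 to 3.46. The summarization and normalization are not given in the sources used here, nor is the log base, which was taken as 2, since the highest value of 13.23 read as a natural log exceeds the 65535 that a 16-bit scanner can record. Columns were used as deposited.

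Probe sets were named by the platform annotation, with 34945 having 1 symbol, 932 several and 9160 none, beside 64 controls. Of those with 1 symbol, 34741 matched RefSeq (GRCm38.p6) by gene number. The highest-mean probe set stood for a gene. The filter used the mean over the arrays, because a filter on any 1 array keeps genes through the array where they are high. The mean lessens this but does not remove it. Itgb8 passed with a mean of 3.75, with 6.25 on the KO DSS array and 1.23 to 3.97 on the others. Itga2 passed with 3.57, with 4.20 on the untreated KO array and 2.95 to 3.87 on the others. Comparisons were log2 differences and counts at 2-fold. The rule for named genes took every family gene, Adamts12 and up to 4 genes of a partner list, chosen by their mean absolute DSS difference or as a ligand or partner of a family gene. The ligand, basement membrane and linker lists name more than 4 genes, and which of their genes are named was chosen after their values were seen. Protein sequences were not used here, and promoter windows were printed in their place. DSS and KO were tested with limma 3.58.1 in R 4.3.3 (lmFit, eBayes with trend, other factor as covariate, 1 residual degree of freedom, 2.54 prior degrees). Genes with zero residual variance were offset by limma. The limma code was run on simulated data with noise set lower than in these arrays. That run does not show what limma could detect here. The family, classes, lists and background limit were chosen with earlier results of these data known. Python 3.11.15, pandas 2.3.3, numpy 2.4.6 and matplotlib 3.10.9 were used.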

Additional observations from a re-analysis of the deposited data

How the results depend on the processing

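Of 76 repeats of the counts under other settings, 64 equalled the value in the report or stayed within 1.5 times it. Most of the 64 were counts of 0 that stayed 0, most limma counts among them. These have no ratio, so the 64 overstates how steady the other counts were. Counts of genes at least 2-fold higher with DSS in KO, 7 in the report, were 4 under the 75th percentile filter (15 of the 34 genes passing), 3 when probe sets were averaged per gene (2 of them among the 7) and 4 against the untreated WT array. Under the 75th percentile filter, KO minus WT under DSS gave 3 higher, untreated KO minus WT 0 higher and 1 lower, and DSS in WT 0 lower. With probe sets averaged, KO minus WT under DSS gave 2 higher. With the filter on any 1 array or no filter, DSS in WT gave 1 higher (Lama1). Leaving out probe sets of the kinds shared by transcripts, untreated KO minus WT gave 5 lower. limma without the covariate called 1 gene for DSS, not an integrin or laminin gene. Of 76 repeats for single genes, 62 stayed past 2-fold and 14 did not, with 0 reversed. Itga5 with DSS in KO was 0.62 with probe sets averaged and 0.34 without the shared kinds. With probe sets averaged, Itgav with DSS in KO was 0.51, Itgb3 0.87, Lamb1 0.83 and Lama3 0.61, and KO minus WT under DSS was 0.71 for Itgb3, 0.59 for Lamb1 and 0.89 for Itgal. Quantile normalization took the median DSS difference in KO of all genes to -0.04, against 0.07. The causes were not tested. No paired analysis was possible because each group has 1 array. The number of arrays limits precision.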

Other observations

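Genes that link integrins to the cytoskeleton or signal from them are given here. Of 18 linker and signalling genes that passed the filter, 3 had a DSS difference in KO of 2-fold or more (Tln2, Fermt2 and Actn1) and 0 lower, where 10.4% and 6.41% of all genes were, with a median of 0.32. In WT 0 were 2-fold higher or lower, where 5.91% and 4.72% of all genes were, and the median was -0.31. Fermt2, a kindlin that activates integrins in stromal and epithelial cells, differed by 1.49 in KO and -0.64 in WT, and its untreated KO value of 6.15 was 1.23 below untreated WT. Fermt3, the kindlin of blood cells, was 1.13 higher in KO than in WT under DSS, the only one of the 18 past 2-fold there (3.87% of all genes), beside Itgal at 1.38 and Itgb2 at 1.00. Between untreated mice 13 of the 18 had a negative KO minus WT difference, where 5920 of all 11530 genes had. The median of the 18 was -0.42. Of the 18, 3 were 2-fold lower in KO (Fermt2, Tln2 at -1.09 and Lims1 at -1.01), where 5.76% of all genes were, and 1 was higher, where 3.04% were. That gene was Src, a kinase that acts downstream of integrins, at 1.16.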
